A study of Homo sapiens with 6 samples.

Results

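The ADAM and ADAMTS metalloproteinases of HK-2 cells were followed after knockdown of PARP1, the main nuclear poly(ADP-ribose) polymerase. HK-2 is an established, immortalised line of human proximal tubule epithelium. The members were all protein-coding genes in the deposited count table whose symbol was ADAM, ADAMTS or ADAMTSL followed by a digit, which gave 38 of 30403 genes. The decoy ADAMDEC1 does not match that pattern and was left out. Both groups were grown in the same medium with serum and transfected by lipofection, with a plasmid for an shRNA against PARP1 (shPARP1) or for a control shRNA (shCtrl), and were harvested 48 h later. Each group had 3 libraries of polyadenylated RNA. The labels name neither the number of hairpins nor the share of cells transfected, and do not say whether replicates came from separate cultures, so a p-value here weighs a difference only against library-to-library variation, part or all of which could be technical.

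ADAM proteins are membrane-anchored proteases with a disintegrin domain, which cut the outer parts of other membrane proteins free from the cell surface, a process called shedding. ADAMTS proteins are secreted relatives with thrombospondin type 1 repeats, which cut proteoglycans, procollagens and other matrix proteins. ADAMTS-like proteins have the repeats but no protease domain and bind the matrix. ADAM10 and ADAM17 are known for releasing ligands of the EGF receptor, which act on tubule cells, and ADAM10 for cutting Notch receptors.

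Of the 38 members, 27 had enough counts to be tested and 11 did not. Among the 27 tested, 18 were called lower, 2 higher and 7 neither, a call being a Benjamini-Hochberg adjusted p under 0.05 in edgeR's quasi-likelihood test over all 16040 genes tested. Of all those genes 55.7% were called in either direction, and 28.5% were called lower and 27.3% higher, against 66.7% and 7.41% of the tested members. The median log2 fold change (shPARP1 against shCtrl) was -0.64 over the tested members and -0.01 over all genes tested. The members that rose were ADAM15 and ADAMTS6. At least 2-fold falls were called for 6 tested members (22.2%), against 4.07% of all genes tested, and a 2-fold rise for 1 (3.70%), against 2.41%. Group ranges were separate for 20 lower and 2 higher members, that is 74.1% and 7.41% of those tested, against 30.4% and 29.7% of all genes. A filter on counts let in members that were high in either group, so these shares describe the tested members and not the whole family. The tested members had long gene models, with a median exon length of 7704 bases against 4491 for all genes tested. With a correction for exon length and GC content, 17 members were called lower and 2 higher, with a median of -0.56 against 0.03 for all genes. Of the 15914 genes tested with that correction, 4156 were called lower and 4900 higher.

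PARP1 itself was measured at 262, 263 and 258 CPM in shCtrl and 26.9, 26.1 and 28.8 CPM in shPARP1, where CPM is the count per 1000000 counts of the TMM-scaled library. The groups were far apart (log2 fold change -3.26, SE 0.04, edgeR adjusted p = 1.7e-51). The shCtrl libraries held 24429683 to 26269194 counts each and the shPARP1 libraries 29387853 to 32809303, so 3 counts stood for 0.0910 to 0.125 CPM. Mitochondrial genes took 12.0% to 13.1% of counts in shCtrl and 9.94% to 10.8% in shPARP1. Proximal tubule markers summed to 1170 to 1200 CPM in shCtrl and 803 to 822 CPM in shPARP1, with 5 of 6 tested genes lower. Among them PAX8 (338 to 422 CPM), CDH6 (209 to 453 CPM), GGT1 (230 to 300 CPM) and DPP4 (15.4 to 26.9 CPM) were detected in every library, while LRP2, CUBN, SLC34A1 and ANPEP had at most 0.500 CPM. Epithelial markers summed to 959 to 980 CPM in shCtrl and 1120 to 1140 CPM in shPARP1, with KRT7 and CDH1 lower and KRT8, KRT18 and KRT19 higher. The summed level of fibroblast markers was 18.9 to 22.4 CPM in shCtrl and 9.37 to 10.7 CPM in shPARP1, and 2 of the 5 listed genes, LUM and PDGFRB, were tested and fell. The other listed fibroblast genes, PDGFRA, COL3A1 and DCN, stayed at or under 0.364 CPM in every library. Endothelial markers summed to at most 0.423 CPM, none could be tested, and KDR was absent from the table. Leukocyte markers summed to 13.9 to 15.7 CPM in shCtrl and 10.7 to 11.6 CPM in shPARP1, with CD14 lower, CD68 higher and the pan-leukocyte gene PTPRC absent from the table. The part of these markers and of the mitochondrial share in the results was not tested. In bulk RNA, fewer cells of a type and less RNA per cell cannot be told apart.

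Promoter sequences are shown for members that changed at least 2-fold in either direction, since members of one family moved oppositely. Each is the longest stretch of the 250 bases before the RefSeq transcript start (GRCh38.p14) that holds no exon annotated in GENCODE 29, written 5′ to 3′ on the gene's strand. Capitals mark matches, on either strand, to 5 short motifs: TGANTCA of AP-1, GGAATG of TEAD factors, CAGACA of SMAD factors, GGGCGG of SP1 and TATAAA of the TATA box. ADAMTS6 rose and the other 4 genes fell.
ADAMTS6, chr5:65481921-65482170, minus strand: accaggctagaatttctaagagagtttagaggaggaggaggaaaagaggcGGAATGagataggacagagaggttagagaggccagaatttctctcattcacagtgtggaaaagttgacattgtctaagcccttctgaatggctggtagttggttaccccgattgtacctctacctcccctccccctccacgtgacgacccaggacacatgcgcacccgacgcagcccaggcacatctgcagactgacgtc
ADAMTS10, chr19:8610736-8610965, minus strand: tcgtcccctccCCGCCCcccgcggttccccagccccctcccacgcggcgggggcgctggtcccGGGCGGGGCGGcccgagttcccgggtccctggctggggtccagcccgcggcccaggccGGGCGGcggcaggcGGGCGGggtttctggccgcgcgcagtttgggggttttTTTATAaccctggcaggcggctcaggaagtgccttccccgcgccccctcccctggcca
ADAMTSL4, chr1:150549158-150549368, plus strand: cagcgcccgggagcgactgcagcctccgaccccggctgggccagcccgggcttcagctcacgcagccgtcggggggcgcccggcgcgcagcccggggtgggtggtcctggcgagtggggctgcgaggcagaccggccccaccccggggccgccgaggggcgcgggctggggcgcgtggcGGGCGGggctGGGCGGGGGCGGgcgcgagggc
ADAM22, chr7:87934001-87934142, plus strand: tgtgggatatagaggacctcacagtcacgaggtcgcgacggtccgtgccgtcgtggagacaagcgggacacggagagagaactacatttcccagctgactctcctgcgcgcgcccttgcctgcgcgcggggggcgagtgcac
ADAM8, chr10:133276869-133277118, minus strand: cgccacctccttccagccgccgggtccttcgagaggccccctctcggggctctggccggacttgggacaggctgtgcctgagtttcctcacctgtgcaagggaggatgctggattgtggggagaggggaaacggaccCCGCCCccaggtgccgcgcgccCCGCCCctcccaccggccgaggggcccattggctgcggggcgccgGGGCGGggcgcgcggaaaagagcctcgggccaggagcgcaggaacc
ADAM9 and ADAMTS12 also fell at least 2-fold and are named only. The window of ADAM15 lies within annotated exons and that of ADAMTS12 mostly so, and neither is shown. RefSeq's table gave a promoter for 26 of the 38 members. The SP1 box was present in 21 of those 26, against 42.3% of all 27305 promoters of the same length. Its letters are all G or C, and the 2 sets were not matched for GC content. Overlapping matches were counted separately. In these full windows ADAM15 held 6 matches and ADAMTS6 held none, so the genes that rose differed in this respect. The window of ADAMTS6 also had the lower GC content (52.4%, with 8 CpG dinucleotides), against 79.6% and 36 CpG for ADAM15. The full windows of the fallen genes ADAMTS10, ADAMTSL4, ADAM22 and ADAM8 held 5, 4, 2 and 3 matches to the SP1 box. The stretches shown for them, some of which are shorter, held 5, 3, 0 and 3. ADAMTS12 was the only one of the 26 with the AP-1 letters, which 6.6% of all promoters held. TEAD letters occurred in 4 of the 26, ADAMTS6 and ADAMTS12 among them, against 11.9% of all promoters. SMAD letters were in 2 of 26 (13.6% of all promoters) and TATA letters in 2 of 26 (11.1%). A match describes these letters only, and nothing was measured on these promoters here.

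Of the 7 tested membrane ADAM proteins with a zinc-binding protease site, 6 fell and 1, ADAM15, rose. Among all genes tested, 28.5% were called lower and 27.3% higher. The sheddases ADAM10 and ADAM17, which cut many of the known shed membrane proteins, both fell. ADAM17 was measured at 63.3, 63.5 and 67.1 CPM in shCtrl and 41.6, 43.2 and 42.8 CPM in shPARP1 (log2 fold change -0.60, SE 0.05, edgeR adjusted p = 1.5e-15). ADAM10 stood at 38.2, 35.1 and 42.0 CPM in shCtrl and 24.4, 23.2 and 26.5 CPM in shPARP1 (log2 fold change -0.64, SE 0.07, edgeR adjusted p = 8.0e-12). For both genes each shPARP1 library lay below each shCtrl library, and the 95% intervals of the changes overlapped, at -0.70 to -0.50 for ADAM17 and -0.77 to -0.50 for ADAM10. ADAM17 (chr2:9488486-9556732 on GRCh38, minus strand) shares 12.3% of its exon length with IAH1 on the opposite strand, whose median count was 164. The library kit kept strand, but whether the counting used it is not stated.

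Of the other membrane ADAM proteases, ADAM12, ADAM19, ADAM8 and ADAM9 fell as well. ADAM12, a protease of insulin-like growth factor binding proteins, was measured at 59.7, 61.6 and 66.1 CPM in shCtrl and 35.2, 36.7 and 35.3 CPM in shPARP1 (log2 fold change -0.81, SE 0.05, edgeR adjusted p = 1.7e-19). The levels of ADAM19, which processes neuregulins, were 82.2, 81.5 and 76.6 CPM in shCtrl and 54.3, 58.0 and 55.9 CPM in shPARP1 (log2 fold change -0.52, SE 0.05, edgeR adjusted p = 3.8e-14). ADAM8, best known from leukocytes, was at 11.0, 15.4 and 11.7 CPM in shCtrl and 5.28, 7.38 and 6.0 CPM in shPARP1 (log2 fold change -1.03, SE 0.12, edgeR adjusted p = 6.1e-10). Replicate 2 of shCtrl was the highest library for ADAM8, and without it the log2 fold change was -0.86 (edgeR adjusted p = 9.7e-09). ADAM9 stood at 4.17, 5.04 and 4.53 CPM in shCtrl and 2.27, 2.33 and 2.21 CPM in shPARP1 (log2 fold change -1.01, SE 0.17, edgeR adjusted p = 6.9e-07). None of these genes had overlapping groups.

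ADAM15 went the other way and was, per unit of length, the most abundant member in both groups. ADAM15, a membrane protease whose human disintegrin domain carries an integrin-binding RGD motif, was measured at 180, 174 and 165 CPM in shCtrl and 332, 313 and 304 CPM in shPARP1 and rose (log2 fold change 0.87, SE 0.04, edgeR adjusted p = 7.5e-28). Raw counts behind these values were 4302, 4516 and 4296 in the shCtrl libraries and 10947, 9652 and 9071 in those of shPARP1. Every shPARP1 library lay above every shCtrl library, by far more than the spread within either group. The gene lies at chr1:155050566-155062775 on the plus strand of GRCh38. It shares 306 exon bases with DCST1 on the same strand, and DCST1 had a median count of 3.5. With a correction for exon length and GC content the rise was 1.10 (edgeR adjusted p = 1.9e-47), and over all alternatives it ranged from 0.84 to 1.10.

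**Figure D1:**
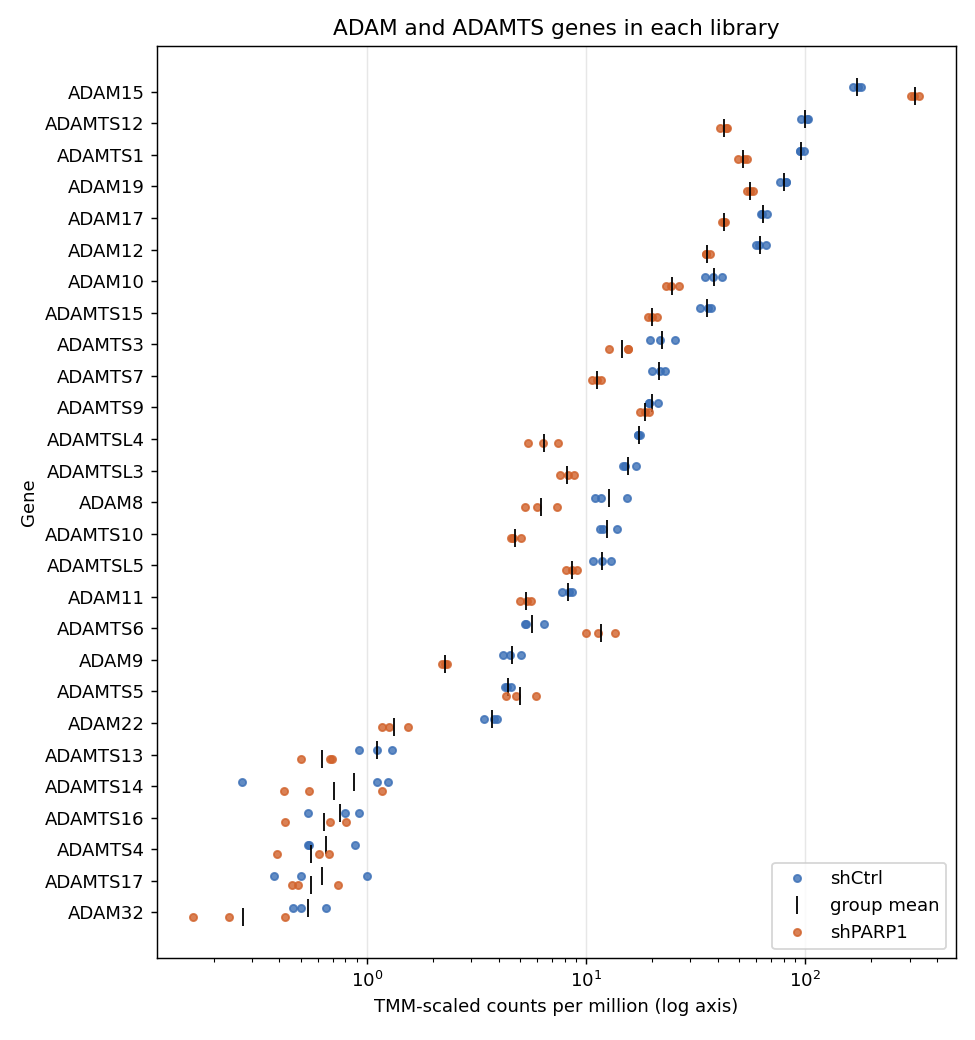
TMM-scaled CPM (log axis) of the 27 tested ADAM and ADAMTS genes, with 1 point per library (3 shCtrl, 3 shPARP1) and a vertical tick for each group mean, ordered by the shCtrl mean. ADAM15 at the top and ADAMTS6 are the genes whose shPARP1 points all lie to the right of the shCtrl points, and the 5 genes with overlapping groups are among the lower rows.

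The ADAM proteins that lack an active protease site act as adhesion proteins or receptors. ADAM22, a receptor for the secreted LGI proteins in nerve cells, was measured at 3.92, 3.43 and 3.80 CPM in shCtrl and 1.27, 1.17 and 1.54 CPM in shPARP1 and fell (log2 fold change -1.48, SE 0.20, edgeR adjusted p = 6.9e-09). ADAM11, a related protein, was at 7.76, 8.62 and 8.37 CPM in shCtrl and 5.61, 5.41 and 5.03 CPM in shPARP1 (log2 fold change -0.62, SE 0.12, edgeR adjusted p = 1.3e-05). Both had separate groups. ADAM32, a gene known from the testis, had counts of 12, 17 and 12 in the shCtrl libraries and 14, 5 and 7 in those of shPARP1 and did not pass the test (log2 fold change -0.95, SE 0.47, edgeR adjusted p = 0.0819). Its groups did not overlap on the CPM scale. It passed with edgeR's likelihood-ratio test (adjusted p = 0.0448) and without shPARP1 replicate 1 (-1.42, edgeR adjusted p = 0.0432). ADAM32 starts 1.8 kb after the end of ADAM9 on chromosome 8.

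Among the ADAMTS proteases that cleave versican and aggrecan, 2 of 5 tested members fell and 3 did not pass the test, a share of lower calls near the 28.5% of all genes tested. ADAMTS1, which cuts both proteoglycans, was measured at 95, 94.7 and 99.0 CPM in shCtrl and 49.5, 52.8 and 54.1 CPM in shPARP1 (log2 fold change -0.89, SE 0.05, edgeR adjusted p = 6.6e-24). ADAMTS15, another versican-cleaving enzyme, was at 37.2, 33.3 and 36.2 CPM in shCtrl and 20, 21.1 and 19.2 CPM in shPARP1 (log2 fold change -0.82, SE 0.07, edgeR adjusted p = 2.4e-15). Both were lower in every shPARP1 library. ADAMTS9 differed little, at 21.3, 19.4 and 19.5 CPM in shCtrl and 18.6, 19.4 and 17.6 CPM in shPARP1 (log2 fold change -0.12, SE 0.08, edgeR adjusted p = 0.217, 95% interval -0.27 to 0.04). Its groups were separated by less than the rounding of these values, and the sign turned to 0.06 with the length and GC correction. ADAMTS5, an aggrecanase, had overlapping groups at 4.38, 4.27 and 4.57 CPM in shCtrl and 4.79, 4.31 and 5.90 CPM in shPARP1 (log2 fold change 0.18, SE 0.15, edgeR adjusted p = 0.314, 95% interval -0.11 to 0.47). ADAMTS4, the other classical aggrecanase, had 12 to 23 counts per library (log2 fold change -0.24, 95% interval -1.01 to 0.53, edgeR adjusted p = 0.633) and overlapping groups.

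ADAMTS1 and ADAMTS5 lie next to each other on the minus strand of chromosome 21, 72503 bases apart, at chr21:26835747-26845409 and chr21:26917912-26966513 on GRCh38. Their 95% intervals, -0.98 to -0.79 and -0.11 to 0.47, do not meet. The difference between their fold changes was not tested. ADAMTS15 and ADAMTS8 are 19981 bases apart on chromosome 11, and ADAMTS8 had at most 3 counts in a library.

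The procollagen N-propeptidases remove the amino-terminal propeptide of fibrillar procollagens. ADAMTS3, which also activates the lymphatic growth factor VEGFC, was at 19.7, 21.9 and 25.4 CPM in shCtrl and 12.7, 15.6 and 15.5 CPM in shPARP1 and fell (log2 fold change -0.62, SE 0.09, edgeR adjusted p = 4.0e-08). ADAMTS2, the main enzyme for type I procollagen, had counts of 7, 14 and 12 in the shCtrl libraries and 2, 5 and 2 in those of shPARP1 and was too low to test. With no filter on low counts it was called lower (-2.12, edgeR adjusted p = 0.00799). ADAMTS14 varied within both groups, with counts of 30, 7 and 29 in the shCtrl libraries and 18, 13 and 35 in those of shPARP1, and was not called (log2 fold change -0.30, SE 0.41, edgeR adjusted p = 0.568). Leaving out 1 library at a time moved the log2 fold change of ADAMTS14 from -0.84 (without shPARP1 replicate 3) to 0.03 (without shCtrl replicate 1), and it was called in none of these 6 fits.

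The remaining ADAMTS proteases moved in both directions, with 4 of 7 tested members lower, 1 higher and 2 not called. Of all genes tested, 28.5% were called lower and 27.3% higher. ADAMTS12, a protease of cartilage oligomeric matrix protein, showed 95.9, 103 and 102 CPM in shCtrl and 44.0, 43.6 and 40.9 CPM in shPARP1 (log2 fold change -1.22, SE 0.05, edgeR adjusted p = 1.1e-29). ADAMTS7, its closest relative, was at 23.0, 20.1 and 21.9 CPM in shCtrl and 11.3, 10.7 and 11.7 CPM in shPARP1 (log2 fold change -0.95, SE 0.09, edgeR adjusted p = 1.4e-14). ADAMTS7 has pseudogene copies, so its counts are uncertain. Both genes were lower in every shPARP1 library.

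ADAMTS10 and ADAMTS6 are a pair of related proteases that act on fibrillin microfibrils and cell adhesions, and they moved in opposite directions. ADAMTS10 was measured at 13.8, 11.6 and 12.0 CPM in shCtrl and 4.67, 5.05 and 4.56 CPM in shPARP1 (log2 fold change -1.38, SE 0.11, edgeR adjusted p = 4.3e-16). ADAMTS6 was measured at 5.34, 6.43 and 5.30 CPM in shCtrl and 10.0, 11.4 and 13.6 CPM in shPARP1 (log2 fold change 1.03, SE 0.12, edgeR adjusted p = 3.5e-11). In shCtrl every library held more ADAMTS10 than ADAMTS6 per length, at FPKM values of 2.72, 2.35 and 2.39 against 0.63, 0.78 and 0.63, where FPKM is the authors' count of fragments scaled to gene length and depth. In shPARP1 the order was reversed, with 0.96, 1.04 and 0.94 FPKM for ADAMTS10 and 1.23, 1.39 and 1.67 FPKM for ADAMTS6. ADAMTS6 spans chr5:65148736-65481920 and ADAMTS10 chr19:8580242-8610735 on GRCh38, both on the minus strand.

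ADAMTS13, the protease of von Willebrand factor, had counts of only 22, 29 and 34 in the shCtrl libraries and 23, 21 and 15 in those of shPARP1. It was called lower (log2 fold change -0.82, SE 0.33, edgeR adjusted p = 0.0300), but the call was lost under 9 of 18 alternatives, among them DESeq2 (adjusted p = 0.0640), the length and GC correction (0.110), and each single library left out except shCtrl replicate 1. Its adjusted p ranged from 0.0162 to 0.135 over the alternatives. ADAMTS16 (log2 fold change -0.25, 95% interval -0.97 to 0.48) and ADAMTS17 (-0.17, 95% interval -0.97 to 0.62) had at most 26 counts in a library and overlapping groups. Neither was called.

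All 3 tested ADAMTS-like genes were called lower, against 28.5% of all genes tested. ADAMTSL4, which promotes the assembly of fibrillin microfibrils, was at 17.6, 17.3 and 17.3 CPM in shCtrl and 7.49, 6.35 and 5.43 CPM in shPARP1 (log2 fold change -1.43, SE 0.10, edgeR adjusted p = 1.2e-18). It shares 736 exon bases with ADAMTSL4-AS1 on the opposite strand, which had a median of 7.5 counts. ADAMTSL3 was at 15.1, 14.7 and 16.9 CPM in shCtrl and 8.31, 8.81 and 7.61 CPM in shPARP1 (log2 fold change -0.92, SE 0.10, edgeR adjusted p = 2.6e-12) and ADAMTSL5 at 10.8, 11.8 and 13.0 CPM in shCtrl and 8.64, 8.09 and 9.09 CPM in shPARP1 (log2 fold change -0.46, SE 0.10, edgeR adjusted p = 9.1e-05). Each shPARP1 library lay below each shCtrl library for all 3 genes.

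**Figure D2:**
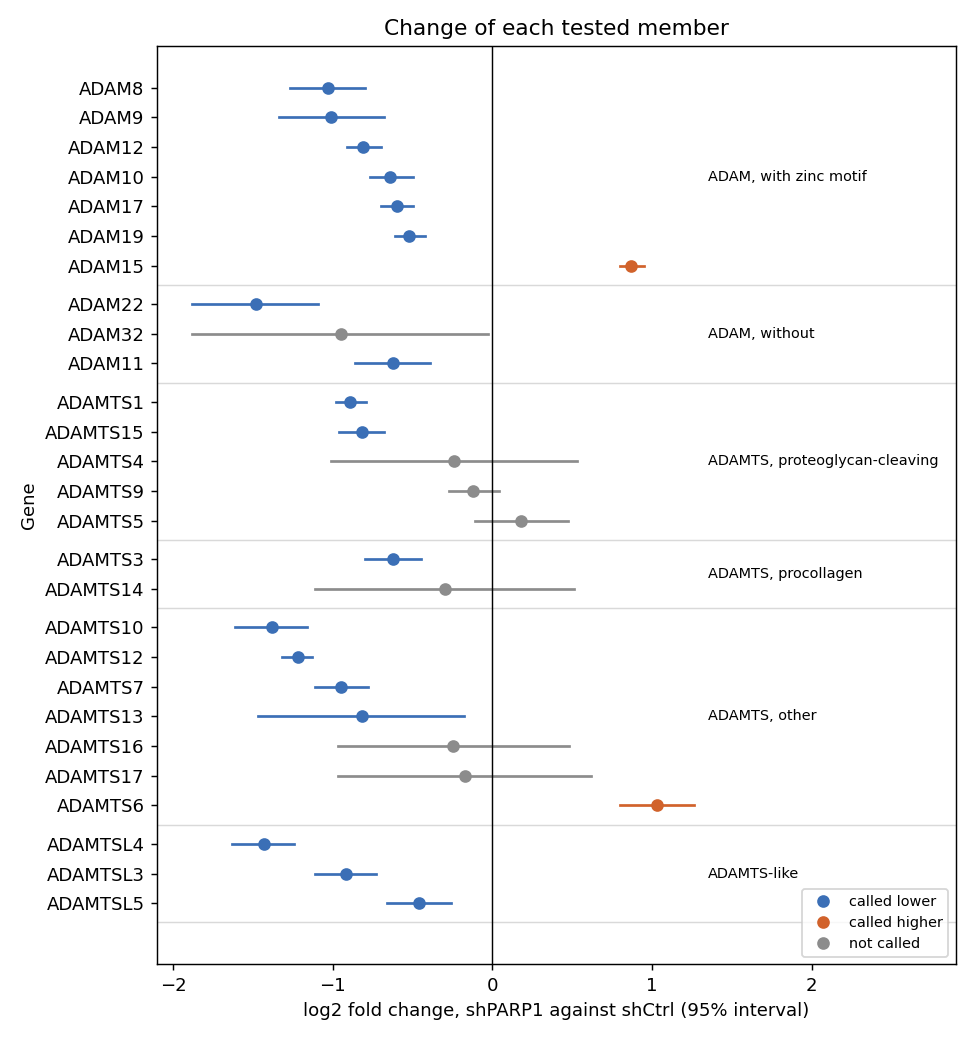
Log2 fold change of shPARP1 against shCtrl for the 27 tested members (points) with 95% intervals (lines, from the standard error of edgeR's quasi-likelihood test), grouped by kind of protein and coloured by call. The 18 genes called lower lie between -1.48 and -0.46, and ADAM15 at 0.87 and ADAMTS6 at 1.03 are the genes called higher.

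The 11 members under the filter were ADAM20, ADAM21, ADAM23, ADAM28, ADAM33, ADAMTS2, ADAMTS8, ADAMTS18, ADAMTS20, ADAMTSL1 and ADAMTSL2. None had more than 14 counts in a library. ADAM21 had counts of 9, 9 and 13 in the shCtrl libraries and 7, 6 and 8 in those of shPARP1. ADAM33 had counts of 6, 6 and 5 in the shCtrl libraries and 10, 8 and 6 in those of shPARP1. ADAMTS18 and ADAMTS20 had no counts in shCtrl and 3 and 1 counts in all of shPARP1, and ADAM20 had 3 counts in all of shCtrl and none in shPARP1. With no filter on low counts, ADAMTS2 alone among the 11 was called.

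Per unit of length, ADAM15 stood above all other members in every library. On the FPKM scale ADAM15 reached 47.17, 46.9 and 43.78 in the shCtrl libraries, against 90.72, 85.83 and 83.6 in those of shPARP1. In shCtrl the next members were ADAMTS1 (16.1 ± 0.415 FPKM, SD, n = 3), ADAM17 (10.8 ± 0.376), ADAM19 (9.88 ± 0.403) and ADAMTS12 (9.69 ± 0.469). ADAM19 and ADAMTS12 lay within their spread of each other there. In shPARP1 the order after ADAM15 was ADAMTS1 (9.0 ± 0.436), ADAM17 (7.32 ± 0.170), ADAM19 (7.13 ± 0.255) and ADAMTS12 (4.27 ± 0.165), and the value of ADAMTS12 was well below that of ADAM19. The FPKM of ADAM10, 2.54 ± 0.208 in shCtrl, rests on a long gene model: its depth-scaled counts divided by its FPKM give 14.9 kb. This implied length was 3.70 kb for ADAM15 and 5.91 kb for ADAM17, against 6.58 and 10.8 kb of GENCODE 29 exons. The FPKM levels of these genes, and the rank of ADAM17 among its neighbours, therefore depend on the gene model.

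ADAM15 took a larger share of the family's summed transcript level after knockdown, while the direction of the sum itself depended on the unit. The summed FPKM of the members was 133, 136 and 134 in shCtrl and 143, 141 and 138 in shPARP1, higher in every shPARP1 library, by a ratio of 1.04. The summed CPM, which is not scaled to length, was 815, 812 and 825 in the shCtrl libraries and 706, 701 and 690 in those of shPARP1, lower in every one. ADAM15 made up 34.1% ± 1.39 of the summed FPKM in shCtrl and 61.6% ± 1.52 in shPARP1 (SD, n = 3 per group). Without ADAM15 the sum was 88.7 ± 2.19 FPKM in shCtrl and 54.0 ± 1.33 FPKM in shPARP1, a ratio of 0.608. The ratio was 0.651 for the other ADAM genes, 0.583 for the ADAMTS genes and 0.565 for the ADAMTS-like genes. These sums were given as a description, with no test. The FPKM of ADAM15 rests on an implied length of 3.70 kb, against 6.58 kb of GENCODE 29 exons. A longer model would lower its FPKM in both groups, so the summed FPKM, its ratio and the ADAM15 shares depend on the gene model. ADAMTS20 is not listed in the FPKM table and had 1 count in all.

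**Figure D3:**
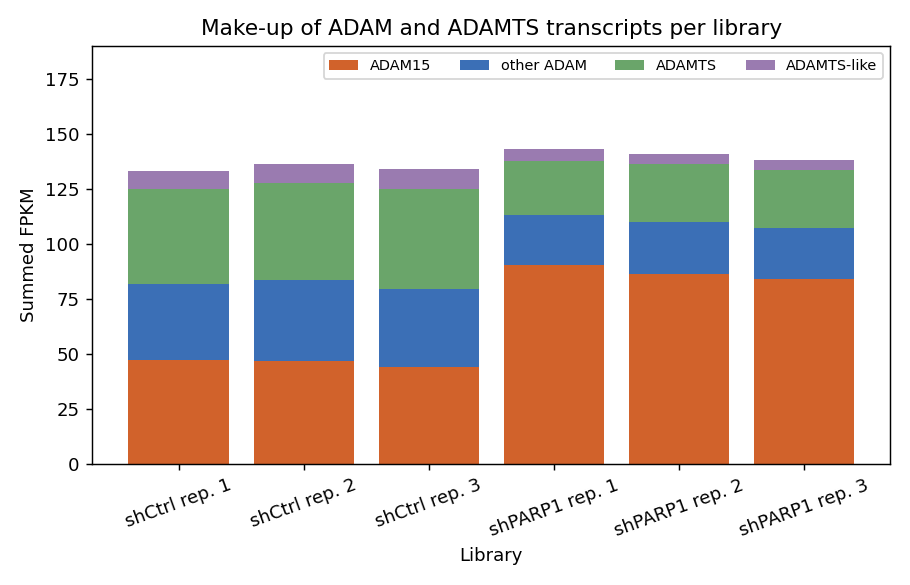
Summed FPKM of the members in each of the 6 libraries, stacked as ADAM15, the other ADAM genes, the ADAMTS genes and the ADAMTS-like genes. The bars are of similar height, 133 to 143 FPKM, while the ADAM15 part takes 32.6% to 35.4% in shCtrl and 60.5% to 63.4% in shPARP1.

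Genes that activate, transport or inhibit these proteases were mostly lower too. Of 16 tested genes in that list, 10 were lower, 1 was higher and 5 were not called (median log2 fold change -0.38), against 28.5% lower, 27.3% higher and a median of -0.01 among all genes tested. TIMP2, an inhibitor of metalloproteinases, was at 666, 660 and 679 CPM in shCtrl and 361, 352 and 354 CPM in shPARP1 (-0.91), where a value alone in parentheses is the log2 fold change. TIMP3, another inhibitor of the list, was absent from the deposited counts. The tetraspanins TSPAN5, TSPAN14 and TSPAN15 escort ADAM10 to the cell surface and are 3 of the 4 genes of the list with the smallest p-values. TSPAN5 was at 43.9, 45.5 and 42.9 CPM in shCtrl and 16.6, 15.8 and 15.2 CPM in shPARP1 (log2 fold change -1.47, SE 0.07, edgeR adjusted p = 2.9e-26). TSPAN14 went from 348 ± 4.26 CPM to 219 ± 7.12 CPM (-0.67) and TSPAN15 from 122 ± 5.14 CPM to 66.7 ± 4.08 CPM (-0.87), given as means ± SD of the 3 shCtrl and then the 3 shPARP1 libraries, as for the genes that follow. The other tetraspanins of this kind in the list were TSPAN10 (-0.57) and TSPAN33 (-0.27), both called lower, and TSPAN17 (-0.07), which was not called.

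The other genes of the list included partners of ADAM17. RHBDF1 (-0.12, 95% interval -0.25 to 0.00) and RHBDF2 (-0.04, 95% interval -0.14 to 0.06), the iRhom proteins that carry ADAM17 out of the endoplasmic reticulum, and their partner FRMD8 (-0.02, 95% interval -0.15 to 0.10) did not pass the test. Nor did the proprotein convertase PCSK7 (-0.04). PACSIN3, an endocytic adaptor, was the gene that rose (0.46). FURIN, which removes the inhibitory prodomain of many ADAM and ADAMTS proteins, was at 177, 167 and 169 CPM in shCtrl and 114, 109 and 106 CPM in shPARP1 and fell (log2 fold change -0.64, SE 0.04, edgeR adjusted p = 7.9e-21). TSPAN10, TSPAN33, FURIN and the genes of this list that rose or were not called were named after their values were seen. With the length and GC correction 3 genes of the list were called higher in place of 1.

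Membrane proteins known to be shed by ADAM10 or ADAM17 moved in both directions. Of 29 tested, 20 were called lower, 6 higher and 3 neither (median -0.64). Among all genes tested 28.5% were lower and 27.3% higher, with a median of -0.01. APP, the amyloid precursor, went from 589 ± 16.5 CPM to 230 ± 7.35 CPM (log2 fold change -1.36, SE 0.03, edgeR adjusted p = 9.7e-39). NOTCH2, a receptor that ADAM10 cuts after ligand binding, went from 196 ± 5.90 CPM to 58.7 ± 4.80 CPM (-1.74). SDC4, a heparan sulfate proteoglycan, and AREG, a ligand of the EGF receptor, rose. SDC4 was at 240, 233 and 240 CPM in shCtrl and 749, 722 and 696 CPM in shPARP1 (1.61) and AREG at 24.1, 26.2 and 27.3 CPM in shCtrl and 81.1, 85.3 and 94.0 CPM in shPARP1 (log2 fold change 1.75, SE 0.06, edgeR adjusted p = 2.6e-32). The groups of these 4 genes did not overlap.

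Matrix substrates of the ADAMTS proteases were lower for 7 of 10 tested genes and higher for 2 (median -0.49). Of all genes tested, 28.5% were lower and 27.3% higher (median -0.01). Another 9 of the 19 listed genes in the table were too low to test, including ACAN, the gene of aggrecan. FBN2, a fibrillin, went from 95.9 ± 2.88 CPM to 38.9 ± 1.10 CPM (-1.30). VCAN, the gene of versican, was at 239, 241 and 256 CPM in shCtrl and 137, 151 and 150 CPM in shPARP1 (log2 fold change -0.75, SE 0.04, edgeR adjusted p = 3.5e-24). BGN, the gene of the small proteoglycan biglycan, went from 97.6 ± 3.51 CPM to 55.1 ± 1.76 CPM (-0.82). VEGFC, activated by ADAMTS3 and named after its values were seen, went from 105 ± 7.06 CPM to 56.2 ± 3.56 CPM (-0.91). TFPI2, a protease inhibitor of the matrix, rose from 67.2 ± 2.01 CPM to 131 ± 0.213 CPM (0.97).

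Genes for the glycosylation and clearance of ADAMTS proteins were called lower for 5 of 8 tested and higher for 1 (median -0.27). The shares over all genes tested were 28.5% lower and 27.3% higher (median -0.01). LRP1, the endocytic receptor that takes up several ADAMTS proteins, was at 260, 266 and 247 CPM in shCtrl and 151, 155 and 140 CPM in shPARP1 (log2 fold change -0.79, SE 0.04, edgeR adjusted p = 1.7e-25). PAPLN, a papilin with ADAMTS-like domains, went from 54.1 ± 2.03 CPM to 26.0 ± 1.09 CPM (-1.06). DPY19L3, a mannosyltransferase for thrombospondin repeats, was at 6.13, 9.43 and 6.68 CPM in shCtrl and 4.12, 4.47 and 4.56 CPM in shPARP1 (-0.76). SDC4 was the gene that rose, and both SDC4 and LRP1 were also counted among the shed membrane proteins. These 4 lists hold known partners of the proteases, and no protein or cleavage was measured.

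**Figure D4:**
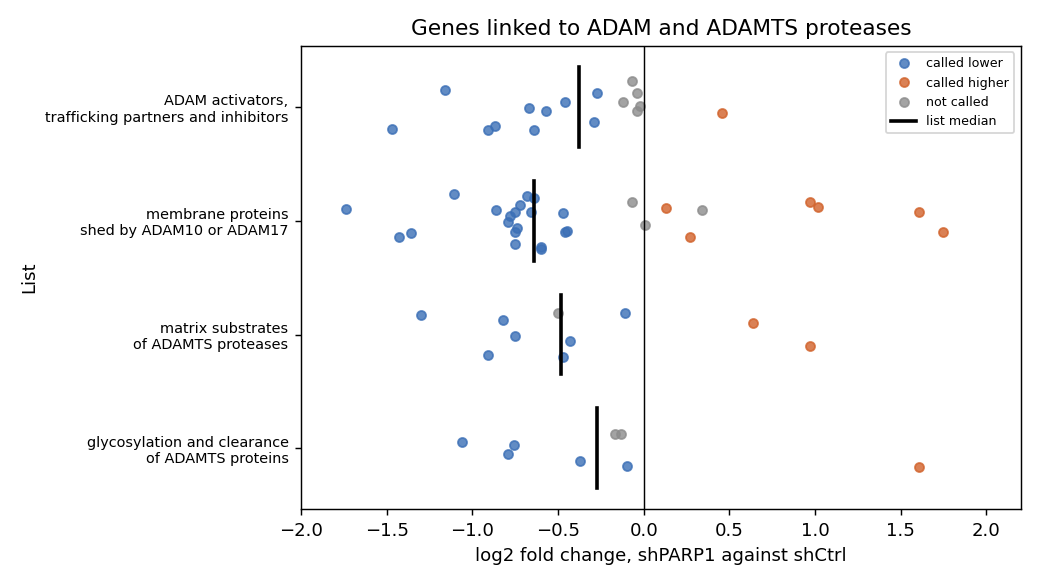
Log2 fold change of shPARP1 against shCtrl for the tested genes of 4 lists linked to the proteases, with 1 point per gene (vertical scatter has no meaning) coloured by call and a black bar at each list's median. The medians lie at -0.38, -0.64, -0.49 and -0.27 from top to bottom. SDC4 at 1.61 and LRP1 at -0.79 each appear in 2 of the lists.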

How the data were processed

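For 3 shPARP1 and 3 shCtrl libraries the authors deposited raw gene-level read counts and FPKM values with 2 decimals. The submitters' processing notes name GRCh38, bcl2fastq, TopHat2 and edgeR. Which program counted reads, on which strand and with which annotation was not given in these sources. Counts were analysed with edgeR 4.0.16 in R 4.3.3: filterByExpr, TMM scaling, and the robust quasi-likelihood F test over 16040 genes, with Benjamini-Hochberg adjustment and calls at an adjusted p under 0.05. Values in CPM are TMM-scaled. Standard errors are the log2 fold change over the root of F, and 95% intervals are normal. Library totals ran from 24429683 to 32809303 counts, and intervals cover these libraries only. Each library counted as 1 sample. Replicates of a group differed beyond the sampling noise of counts (chi-square per degree of freedom 2.54 to 4.63). That variation could be technical and does not show that the replicates were separate cultures.

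Exon lengths, GC content of the longest transcript and coordinates came from GENCODE release 29, matched for 97.4% of genes, and promoters from RefSeq. Every tested member was named, and of each related list up to 4 called genes with the smallest p-values, beside genes marked in the text as chosen after their values were seen. The members, lists and alternatives were chosen with earlier results of these data known. Alternatives used other scaling, filters and tests, with limma 3.58.1 and DESeq2 1.42.0.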

Additional observations from a re-analysis of the deposited data

How the results depend on the processing

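Of 508 log2 fold changes of the 27 tested members under the alternatives, 497 kept their direction and their side of the threshold or stayed uncalled, 9 lost the call and 2 gained it, and no called value changed sign. The 9 were all of ADAMTS13 (adjusted p 0.0524 to 0.135) and the 2 of ADAM32. With a 2-fold minimum, 6 members were called lower and 1 higher, and 653 and 386 of all genes, since that setting keeps large changes only. Leaving out 1 library at a time gave 17 to 19 members called lower and 2 higher, and 4196 to 4416 lower and 4024 to 4349 higher genes in all. These member counts hide exchanges. ADAMTS2, under the filter in the main fit, was called without shCtrl replicate 1 and without each single shPARP1 replicate. ADAMTS13 kept its call only without shCtrl replicate 1. DESeq2 gave 17 and 2 members, and 4188 and 4063 of all genes. The length and GC correction gave 17 and 2 members, with a member median of -0.56, and 4156 and 4900 of all genes. The PARP1 change ranged from -3.30 to -3.01. Library numbers did not pair the groups: same-numbered libraries correlated in their deviations at 0.04, -0.00 and 0.04, and not every library correlated best with its own number. With the replicate block, 18 members were called lower and 2 higher, 4617 and 4443 of all genes, and PARP1 was at -3.26, so the block changed no member's call. Of 400 counts over lists and subgroups, 20 moved by over 1.5 times, 14 of them at the 2-fold minimum. The 6 tested members with fewest counts were ADAM32, ADAMTS4, ADAMTS13, ADAMTS14, ADAMTS16 and ADAMTS17. Their 95% intervals each span over 1 log2 unit. The parts of depth and of variation between replicates in these widths were not tested.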
